A study of Homo sapiens with 6 samples.

Results

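The genes of telomere protection and of telomere maintenance without telomerase were examined in U2OS, a cell line from a human osteosarcoma, after knockdown of the histone demethylase LSD1. The genes form a list of 10, chosen with earlier results of these data known. They were taken from the deposited gene table by symbol, by a rule that uses no measured value. They are the shelterin genes TERF1, TERF2, TERF2IP, TINF2, ACD and POT1, the H3.3 deposition genes ATRX and DAXX, the helicase gene RTEL1 and the telomerase gene TERT. Of the 10 genes, 9 had a row among the 15585 genes of the table, and 8 passed the filter on low counts (edgeR's filterByExpr, minimum count 10) and were tested among the 11844 genes that passed it. TINF2 was not analysed here, and DAXX stayed below the filter. The comparison asks whether loss of LSD1 changed these transcripts, and a positive log2 fold change means a higher level in siLSD1.

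Both groups were U2OS cells harvested for total RNA 48 h after siRNA transfection, so the controls had also been transfected. The 3 siCTR libraries came from cells given control siRNA and the 3 siLSD1 libraries from cells given LSD1 siRNA. Which of the siRNAs against LSD1 was used for these libraries is not given in the sources used here, and both groups are 1 cell line. The labels do not say that the 3 libraries of a group were separate cultures, so the p-values measure the spread between libraries, which may be technical. Each library held 12513511 to 13561344 counted reads, and the libraries of a group differed by more than sampling noise (chi-square of 6.46 to 29.1 per degree of freedom). KDM1A, which encodes LSD1, fell to 18.5% of the control level, with an adjusted p of 2.27e-07 (edgeR quasi-likelihood, Benjamini-Hochberg over all genes). Of 9 mesenchymal and bone markers, 8 had a row. VIM had 9487 to 11615 reads per library and ALPL, a bone phosphatase, 4162 to 5411, whereas the osteoblast regulator RUNX2 had 0 to 4 and SPARC, a bone matrix protein, 0 to 3. Of the 6 markers of this list that were tested, 1 passed the adjusted threshold of 0.05, the fibronectin gene FN1 at a log2 fold change of 0.95.

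Telomeres are repeats at chromosome ends that are bound by shelterin, a complex in which TRF1 and TRF2 hold the duplex repeats, RAP1 rides on TRF2, TIN2 bridges the subunits, and TPP1 brings in POT1, which binds the overhanging strand. Most cancer cells keep their telomeres with telomerase, whose catalytic subunit is TERT. U2OS cells instead use alternative lengthening of telomeres (ALT), a recombination pathway that goes with the loss of ATRX function. ATRX and DAXX together deposit the histone variant H3.3 at telomeres and other repeats, and U2OS is known to lack ATRX protein.

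In siCTR cells the shelterin genes and ATRX were counted at a middle to high level, TERT and RTEL1 at a low level and DAXX near 0. For RTEL1 and DAXX these are counts under the authors' processing and may not be the levels of their transcripts. RTEL1 shares exonic bases with other genes, and nearly all of the DAXX transcript also occurs in alternate sequences of the genome, both described below. Whether this lowered their counts was not tested. Levels were compared between genes as FPKM, in which reads are scaled to the length of the gene and the depth of the library. The highest mean FPKM was that of TERF2IP, at 33.6 ± 6.61 (SD, n = 3), which was above 86.6% of the genes in the table. ACD followed at 20.7 ± 0.449 FPKM (SD, n = 3), and then ATRX at 14.96 ± 2.90 FPKM (SD, n = 3). TERF1 was at 13.2 ± 1.68 FPKM (SD, n = 3), TERF2 at 10.6 ± 1.02 and POT1 at 8.99 ± 0.375. POT1, the lowest of these 6 genes, was still above 61.4% of the genes in the table. TERT was at 1.92 ± 0.229 FPKM (SD, n = 3), which was above 38.7% of the genes in the table. RTEL1 was at 1.13 ± 0.109 FPKM and DAXX at 0.175 ± 0.0264 (SD, n = 3). Of the 8 pairs of neighbours in this order, 7 had FPKM values that did not overlap between genes. The exception was ATRX and TERF1, whose libraries lay at 11.7 to 17.1 and at 12.2 to 15.1 FPKM. The plot of FPKM by gene shows all 6 libraries.

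**Figure D1:**
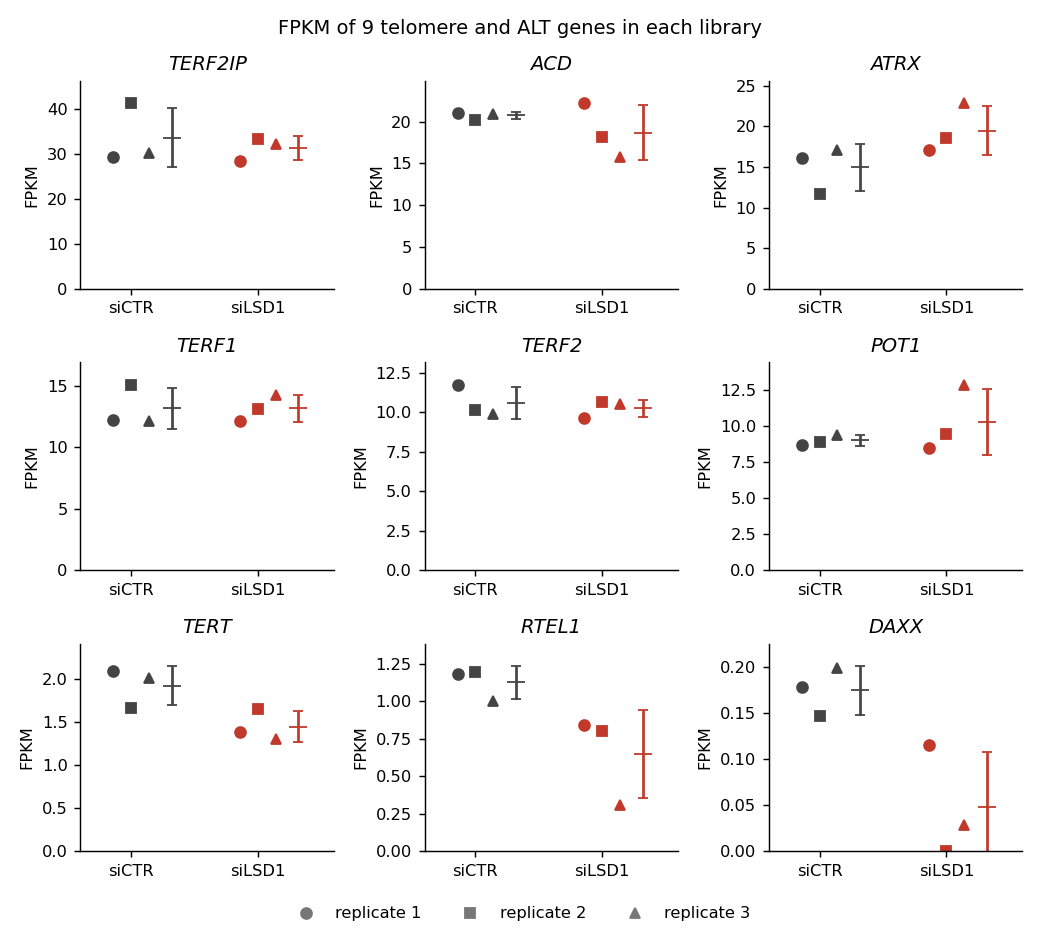
FPKM of the 9 genes in each library, ordered by their siCTR mean, with symbols for the replicate number and the mean ± SD of each group (n = 3) beside them. Each axis starts at 0, and the lower SD bar of DAXX in siLSD1 is clipped there. The siLSD1 libraries of RTEL1, TERT and DAXX all lie below their siCTR libraries, and those of the other 6 genes overlap with the controls.

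Knockdown of LSD1 left the shelterin transcripts within the scatter of the libraries. TERF1 (chr8:73008856-73048123, + strand, GRCh38) encodes TRF1. Its read counts, given here and below in the order of replicates 1, 2 and 3, were 524, 655 and 544 for siCTR against 537, 545 and 645 for siLSD1. The groups overlapped, with the highest count in a control, and the log2 fold change was −0.00 (95% interval −0.29 to 0.29). Of the 32-base stretches (words) read along its transcript, 35.1% occurred elsewhere on the primary chromosomes, so its reads could have been shared with near-identical copies.

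TERF2 (chr16:69355567-69408571, − strand) encodes TRF2, which keeps chromosome ends from being joined. Its counts were 491, 429 and 431 reads for siCTR against 416, 432 and 464 for siLSD1. They overlapped, and the log2 fold change was −0.05 (95% interval −0.31 to 0.22). The FPKM ratio of TERF1 to TERF2 ran from 1.04 to 1.49 in siCTR and from 1.23 to 1.36 in siLSD1, so the balance of both duplex-binding genes also overlapped between groups.

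TERF2IP (chr16:75647773-75761872, + strand) encodes RAP1, the partner of TRF2. It had 800, 1137 and 860 reads for siCTR against 797, 880 and 927 for siLSD1. siCTR replicate 2 stood above the other 5 libraries, and the log2 fold change was −0.11 (95% interval −0.43 to 0.21).

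ACD (chr16:67657512-67660810, − strand) encodes TPP1, the subunit that recruits POT1 and telomerase. Its siCTR counts of 559, 544 and 581 reads lay close together, and its siLSD1 counts were 609, 468 and 442 reads. siLSD1 replicate 1 had the highest count of all libraries and replicate 3 the lowest, so the groups overlapped, and the log2 fold change was −0.15 (95% interval −0.44 to 0.14).

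POT1 (chr7:124822386-124929983, − strand) encodes the subunit on the overhanging strand. Its counts were 455, 473 and 516 reads for siCTR against 461, 483 and 712 for siLSD1. siLSD1 replicates 1 and 2 lay inside the range of the control counts and replicate 3 well above it, and the log2 fold change was 0.19 (95% interval −0.14 to 0.53). Without siLSD1 replicate 3 it was −0.01. The FPKM ratio of POT1 to ACD was 0.412 to 0.450 in siCTR and 0.383, 0.522 and 0.815 in siLSD1 replicates 1, 2 and 3, so the ratio was highest, and the levels of the 2 genes closest, in siLSD1 replicate 3.

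The summed FPKM of these 5 shelterin genes was 82.5 to 95.5 in the siCTR libraries and 80.7 to 85.7 in the siLSD1 libraries, and the ranges overlapped. The adjusted p of the 5 genes lay between 0.607 and 0.996 (edgeR quasi-likelihood, Benjamini-Hochberg over all genes). Their 95% intervals reached down to −0.44 for ACD and up to 0.53 for POT1 on the log2 scale. For each gene, a change inside its own interval is not excluded by these libraries.

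The shelterin gene TINF2 (chr14:24238286-24242663, − strand) encodes TIN2, the bridge of the complex, and no statement on its level is made here. The beginning of its coding sequence is set beside that of DAXX below, because both genes lay outside the tested set and differed in whether their sequence has copies. Each line gives 60 coding bases from GRCh38 on the gene's strand, with the start codon in capitals:
DAXX (exon 2, chr6:33321866-33321925, − strand): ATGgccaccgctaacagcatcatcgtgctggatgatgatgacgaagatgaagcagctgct
TINF2 (exon 1, chr14:24242273-24242332, − strand): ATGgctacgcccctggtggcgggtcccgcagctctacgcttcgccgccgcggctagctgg
The DAXX bases were found without a mismatch on 4 of the 16 alternate sequences that GRCh38 holds for chromosome 6, which are further versions of parts of that chromosome, and the TINF2 bases on 0 of the 4 for chromosome 14.

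DAXX (chr6:33318558-33323016, − strand) encodes the chaperone that carries H3.3 to the chromatin remodeler ATRX. It had 6, 5 and 7 reads for siCTR against 4, 0 and 1 for siLSD1. Every siLSD1 library was below every siCTR library. The exact permutation test on counts scaled to library size (two-sided) gave p = 0.1, the smallest value that 3 libraries against 3 can give. A count of 0 allows up to 3 reads, which is 0.0846 to 0.0917 FPKM depending on the library, for counting error only. The siCTR libraries were at 0.147 to 0.199 FPKM and siLSD1 replicate 1 was at 0.115, so those 4 lay above this limit. The second set of counts that the authors deposited had 9, 9 and 10 reads for siCTR against 6, 2 and 3 for siLSD1.

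The surroundings of DAXX were then searched for copies of their sequence. This search was chosen after the counts had been seen. Of the 148 words of 32 bases taken along the DAXX transcript, 147 (99.3%) also occurred in alternate sequences, with a median of 4 copies. Within 500 kb of DAXX there were 39 other protein-coding genes, of which 10 had a row in the table and could be read at all. Of the 39, 33 had over 90% of their words in alternate sequences, and 0 of these 33 reached 1 FPKM in siCTR, most of them for want of a row. Within 6000 kb, DAXX included, 175 genes were over 90%, of which 23 had a row and 2 reached 1 FPKM. Of the other 114, 91 had a row and 58 reached 1 FPKM. Among the 20013 protein-coding genes searched, 164 of 721 genes over 90% had a row (22.7%), compared with 78.5% of the other 19292. Of the genes with a row, 20.7% and 68.3% reached 1 FPKM. A gene without a row was not analysed here and says nothing of its level. The share was 0.00% for TINF2 and at most 7.65% for every tested member. Whether the genome used for alignment held alternate sequences is not given in the sources used here, and the part of this in the count of DAXX was not tested. The level of DAXX here is therefore a count under these processing steps. The map of genes around DAXX shows both the values and the genes without one.

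**Figure D2:**
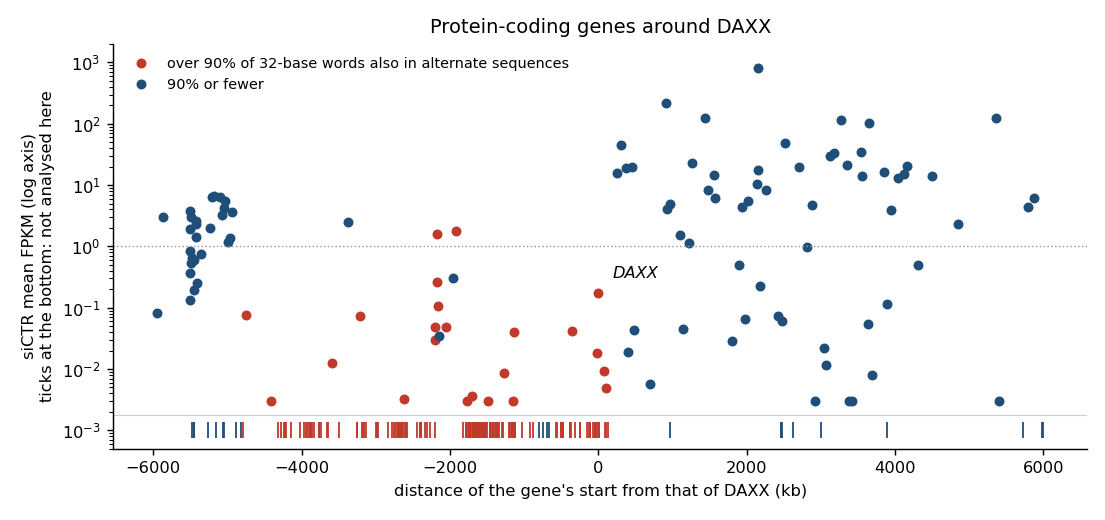
Mean FPKM in siCTR (log axis) of protein-coding genes within 6000 kb of DAXX against the distance of their start from that of DAXX in kb, with values under 0.003 drawn at 0.003 and genes not analysed here as ticks at the bottom. Red marks genes with over 90% of their 32-base words also in alternate sequences of GRCh38. The red genes end 135 kb to the right of DAXX, 23 of the 175 have a value and 2 reach 1 FPKM (dotted line), against 91 and 58 of the 114 blue genes.

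ATRX (chrX:77504880-77786233, − strand) encodes the remodeler that works with DAXX and whose protein U2OS cells lack. Its transcript was counted in every library, with 2307, 1696 and 2573 reads for siCTR against 2534, 2587 and 3460 for siLSD1. The counts are sums over the gene and do not show which exons were covered, so they do not speak to whether the transcript is complete. In CPM, which are counts scaled to the TMM-corrected depth of each library, ATRX was at 178, 132 and 191 in siCTR and at 189, 208 and 257 in siLSD1. siCTR replicate 2 was the lowest and siLSD1 replicate 3 the highest, and siLSD1 replicate 1 lay between siCTR replicates 1 and 3, so the groups overlapped. The log2 fold change was 0.38 (SE 0.15, 95% interval 0.05 to 0.71), with an unadjusted p of 0.0271 and an adjusted p of 0.277 (edgeR quasi-likelihood, Benjamini-Hochberg over all genes). Without siCTR replicate 2 it was 0.24 and without siLSD1 replicate 3 it was 0.25, and the unadjusted p was then above 0.05. The other 4 fits that left out 1 library gave 0.42 to 0.49. ATRX has the longest gene model of the 9 genes at 11167 bases, and siCTR replicate 2 was the library whose deviation across all tested genes had the strongest correlation with length (Spearman −0.485, a description across genes). The part of length in the value of ATRX was not tested apart from the joint correction given with GC content.

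RTEL1 (chr20:63657810-63696253, + strand) encodes a helicase that unwinds telomere loops and G-quadruplexes during replication, and it showed the largest difference of the 8 tested members. Its counts were 79, 81 and 70 reads for siCTR against 58, 52 and 22 for siLSD1. All 3 siLSD1 libraries lay below all 3 siCTR libraries, and siLSD1 replicate 3 lay far below the other 2. The log2 fold change was −0.80 (SE 0.30, 95% interval −1.45 to −0.15), with an unadjusted p of 0.0197 and an adjusted p of 0.245 (edgeR quasi-likelihood, Benjamini-Hochberg over all genes). In mean CPM, siLSD1 stood at 57.5% of siCTR. Without siLSD1 replicate 3 the log2 fold change was −0.46, and without siCTR replicate 2 it was −0.74, each with an unadjusted p above 0.05. GENCODE release 44 places 52.9% of the exonic bases of RTEL1 in other genes as well, mainly in the readthrough gene RTEL1-TNFRSF6B. Reads there match more than 1 gene of that annotation. How the authors' counting treated such reads is not given in the sources used here. The value of RTEL1 is uncertain for this reason too.

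TERT (chr5:1253147-1295068, − strand) encodes the catalytic subunit of telomerase, which U2OS cells do not use for their telomeres. Reads were nonetheless counted on the gene, 108, 87 and 109 for siCTR against 74, 83 and 71 for siLSD1. The count is over the gene and does not show whether the transcript is spliced or translated. In CPM the lowest control was 6.77 in siCTR replicate 2 and the highest siLSD1 library was 6.66 in replicate 2, so the groups did not overlap but nearly touched. The log2 fold change was −0.41 (SE 0.19, 95% interval −0.82 to −0.01), with an unadjusted p of 0.0462 and an adjusted p of 0.344 (edgeR quasi-likelihood, Benjamini-Hochberg over all genes). Of the 6 fits that each left out 1 library, 2 kept an unadjusted p under 0.05, those without siCTR replicate 2 and without siLSD1 replicate 2. The log2 fold change ran from −0.51 to −0.35 over these fits.

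**Figure D3:**
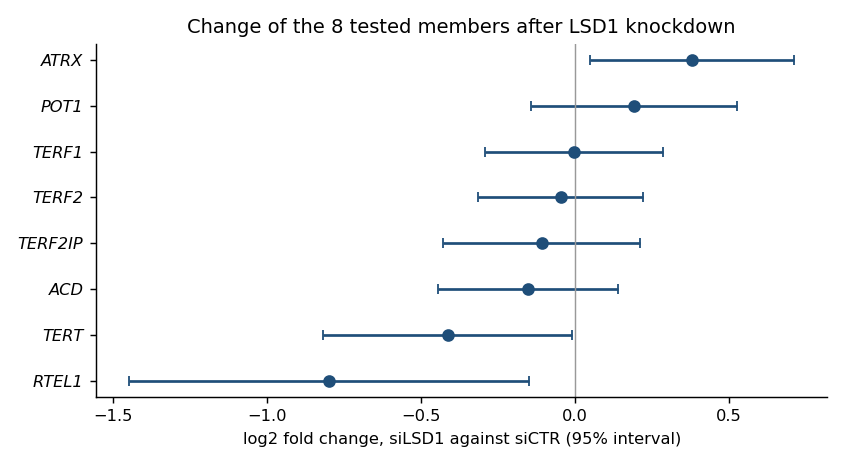
Log2 fold change of the 8 tested genes in siLSD1 against siCTR, with 95% intervals from the edgeR fit on all genes. The intervals of ATRX, TERT and RTEL1 lie off 0, that of TERT ending at −0.01, and those of the 5 shelterin genes cross 0.

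Counted over the 8 tested members, 1 (ATRX) was higher in siLSD1 at an unadjusted p under 0.05, where 7.48% of all tested genes were. The members lower at this threshold were 2 (RTEL1 and TERT), where 6.55% of all tested genes were. Once edgeR's p-values were adjusted over all genes, 0 of the 8 had an adjusted p under 0.05, where 1.44% of all tested genes did. By CPM, 0 of the 8 had all siLSD1 libraries above all siCTR libraries, against 11.4% of all tested genes, and 2 had all of them below, against 9.97%. Whether the members differed from other genes in these shares was not tested. The median log2 fold change was −0.08 for the 8 and −0.01 for all tested genes. With DESeq2, 2 of the 8 (ATRX and RTEL1) were under the unadjusted threshold and 0 under the adjusted one, beside 1560 and 323 of all 11844 genes. With GC content and gene length corrected for, ATRX had an adjusted p of 0.0369 from edgeR and a log2 fold change of 0.30, in a fit that called 837 of 11765 genes at the adjusted threshold. With the replicate number as a block, edgeR gave ATRX an adjusted p of 0.0210 and RTEL1 of 0.0150. That fit called 897 of 11844 genes at the adjusted threshold. The labels share the replicate numbers between groups but do not state a pairing.

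The 3 members past the unadjusted threshold lay at the ends of the range in GC content among the members. GC content of the transcript was 36.9% for ATRX, 37.4% for TERF1 and 37.7% for POT1, against 61.7% for ACD, 62.5% for RTEL1 and 63.0% for TERT. siLSD1 replicate 3 was the highest of the 6 libraries for ATRX and POT1 and the lowest for ACD, RTEL1 and TERT. Relative to the siCTR mean on the log2 CPM scale, this library was at 0.62 for ATRX and 0.52 for POT1, and at −0.39 for ACD, −1.78 for RTEL1 and −0.55 for TERT. TERF1, with a GC content like that of ATRX and POT1, stood at 0.12 in this library, below the 0.21 of siCTR replicate 2. Over all tested genes with a GC value, the deviation of a library from the mean of the 6 libraries had a Spearman correlation with GC content of −0.583 in siLSD1 replicate 3 and of 0.560 in siLSD1 replicate 1, a description across genes. Among the siCTR libraries it was 0.419, −0.0354 and −0.196 in replicates 1, 2 and 3. In siLSD1 replicate 1, where the correlation has the opposite sign, ATRX stood at 0.18, RTEL1 at −0.43 and TERT at −0.48 on the same scale. With the correction for GC content and length, edgeR gave RTEL1 a log2 fold change of −0.78 (unadjusted p 0.0088, adjusted p 0.0802). ATRX stood at 0.30 (unadjusted p 0.0022, adjusted p 0.0369) and TERT at −0.34, the latter no longer under the unadjusted threshold. In this fit 2898 of 11765 genes passed the unadjusted threshold. Beyond this correction, the part of GC content in the values of the members was not tested.

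**Figure D4:**
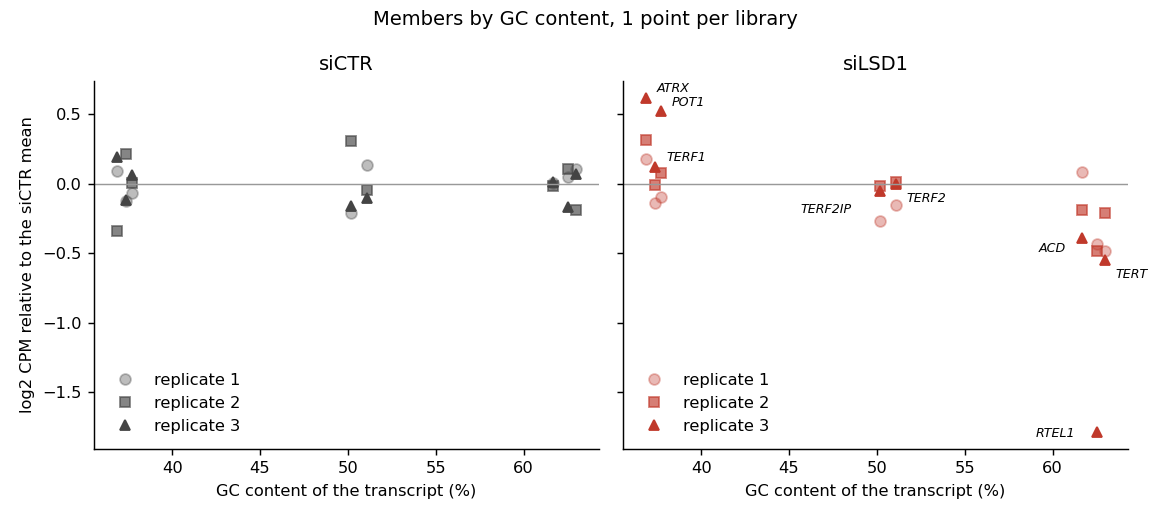
Log2 CPM of the 8 tested genes in each library relative to the siCTR mean, against GC content of the transcript (%), for siCTR on the left and siLSD1 on the right. The triangles of siLSD1 replicate 3, which carry the gene names, run from 0.62 for ATRX down to −1.78 for RTEL1, while the other siLSD1 libraries stay between −0.48 and 0.31.

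The other genes of telomere biology were read from 4 lists of 61 genes, of which 55 were tested. At an unadjusted p under 0.05, 5 were higher and 1 was lower in siLSD1, where 7.48% and 6.55% of all tested genes were, and 0 passed the adjusted threshold (edgeR quasi-likelihood, Benjamini-Hochberg over all genes). Their median log2 fold change was 0.05.

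Of the 11 genes of telomere end processing and replication, 9 were tested and 0 passed the unadjusted threshold in either direction, with a median log2 fold change of 0.08. CTC1 and STN1, which with TEN1 form the CST complex that fills in the strand opposite the overhang, had log2 fold changes of 0.13 and 0.06. TEN1 itself had 1 to 7 reads per library. HMBOX1, a protein that binds telomere repeats directly, had the largest value of this list at 0.33, with overlapping groups.

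Of the 13 genes of the telomerase particle and its assembly, 11 were tested, 0 passed the unadjusted threshold and the median was −0.00. DKC1, which encodes the pseudouridine synthase dyskerin that holds the telomerase RNA, had 3775 to 4332 reads per library and a log2 fold change of 0.03 (SE 0.11). RUVBL1, an ATPase used in assembling the particle, had the largest value at 0.23. The telomerase RNA gene TERC was not analysed here.

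Of the 25 genes of ALT recombination and PML bodies, 23 were tested, 3 were higher and 0 lower at the unadjusted threshold (7.48% and 6.55% of all tested genes), and the median was 0.06. SLX4IP, which restrains recombination at ALT telomeres, had 71 to 76 reads in siCTR and 94 to 99 in siLSD1, with a log2 fold change of 0.38 (SE 0.18). EME1, the partner of the nuclease MUS81, had a log2 fold change of 0.31 (SE 0.14). SMARCAL1, an annealing helicase for stalled forks, had 270 to 291 reads in siCTR and 303 to 386 in siLSD1, with a log2 fold change of 0.34 (SE 0.13). The siLSD1 libraries of these 3 genes lay above all siCTR libraries in CPM, and their adjusted p lay between 0.250 and 0.353 (edgeR quasi-likelihood, Benjamini-Hochberg over all genes). PML, the core of the bodies in which ALT telomeres gather, had a log2 fold change of −0.06 (SE 0.15).

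Of the 12 genes of H3.3 and its chaperones, all were tested, 2 were higher and 1 lower at the unadjusted threshold (again beside 7.48% and 6.55%), and the median was 0.05. CABIN1, a subunit of the HIRA complex that also deposits H3.3, had a log2 fold change of 0.40 (SE 0.16). It had 748 reads in siCTR replicate 2 and 1176 to 1431 in the other 5 libraries. CBX5, which encodes the heterochromatin protein HP1 alpha, had 0.29 (SE 0.11). ASF1A, a histone chaperone that passes H3 on to HIRA, had 358 to 434 reads in siCTR and 262 to 364 in siLSD1, with a log2 fold change of −0.40 (SE 0.15). The H3.3 genes H3-3A and H3-3B had log2 fold changes of −0.21 and −0.18, neither under the unadjusted threshold. The adjusted p of CABIN1, CBX5 and ASF1A lay between 0.226 and 0.280 (edgeR quasi-likelihood, Benjamini-Hochberg over all genes).

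**Figure D5:**
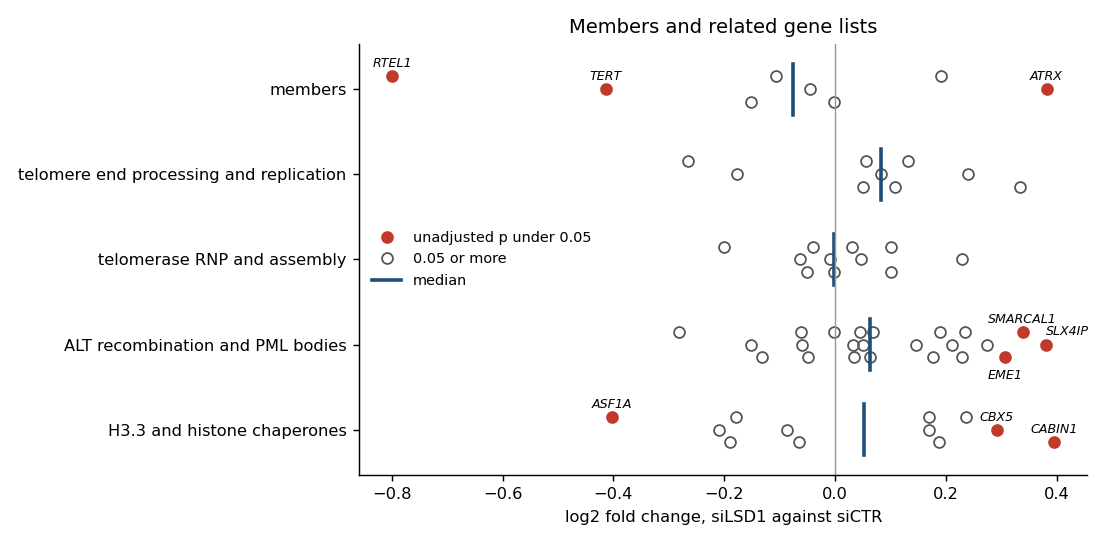
Log2 fold change in siLSD1 against siCTR for the members and the tested genes of 4 related lists, 1 point per gene, spread vertically for sight only. Filled points have an unadjusted p under 0.05 and are named, and blue lines are the medians, which lie between −0.08 for the members and 0.08 for end processing.

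Cell cycle markers were set beside these values since the share of cycling cells could differ between groups. By flow cytometry, the authors reported fewer U2OS cells in S phase after LSD1 knockdown. Of 10 S phase markers, 0 were higher and 1 was lower at the unadjusted threshold, the cyclin gene CCNE2 at a log2 fold change of −0.45. By sign alone 8 of the 10 were lower, and the median log2 fold change was −0.13, beside −0.01 for all tested genes. Their summed CPM was 1640 to 1785 in siCTR and 1646 to 1685 in siLSD1. Of 10 G2/M markers 0 passed it, 6 were higher by sign and the median was 0.06, with summed CPM of 3545 to 4047 in siCTR and 3685 to 4443 in siLSD1. The sums overlapped in both lists, and their part in the values of the members was not tested. Fewer cells expressing a gene and less RNA per cell cannot be told apart in these bulk libraries. Of 8 epithelial markers, 3 were tested and CDH1 was higher at the unadjusted threshold, and of 6 blood cell markers 1 was tested and 0 passed it. Epithelial markers summed to 29.2 to 34.2 CPM in siCTR and 31.5 to 37.3 in siLSD1, and blood cell markers to 2.08 to 3.85 and 1.63 to 3.95.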

How the data were processed

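Libraries were assigned to siCTR or siLSD1 and numbered from their labels. STAR was the aligner, and the authors deposited unnormalized read counts for each gene. The genome build, annotation and counting program are not given in the sources used here. They also deposited a normalised signal (each count over its library's size factor) and FPKM values. The log2 fold changes, p-values and padj of the authors' deposited comparisons, made with DESeq2, were not used. The authors' deposited tables of library pairs hold a second set of read counts, a median of 1.11 times the first.

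Counts were fitted in R 4.3.3 with edgeR 4.0.16 (TMM, quasi-likelihood test, filterByExpr minimum 10, no covariates) on the whole table, and p-values were adjusted over 11844 genes with the Benjamini-Hochberg method. The biological coefficient of variation was 12.6%. CPM used TMM-scaled library sizes. Intervals (95%) are from the fit. Other steps ran in Python 3.11.15 (pandas 2.3.3, numpy 2.4.6, scipy 1.17.1). The procedure was tested on simulated counts. Coordinates, GC content and overlaps came from GENCODE release 44 on GRCh38, with 15355 genes matched by symbol, 392 of them through a RefSeq synonym. Gene lengths came from the deposited FPKM. For alternate sequences, words of 32 bases were taken every 16 bases of a transcript and searched for exactly in 261 alternate-locus sequences.

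Alternatives were DESeq2 1.42.0, limma 3.58.1 (voom, and log2(FPKM + 0.1)), library size scaling, no filter, at least 1 CPM in 3 libraries, a replicate block, leaving out each library, the second counting, and a lowess correction (span 0.3) for GC content and length. The members and gene lists were chosen with earlier results of these data known. Named genes were the members, KDM1A, CTC1, STN1, TEN1, TERC, DKC1, PML, SLX4IP, H3-3A, H3-3B, every gene of the 4 related lists with an unadjusted p under 0.05, and in each list the gene with the largest absolute log2 fold change at a mean of at least 1 CPM. The cell type and cell cycle markers named in the text were picked after their values were seen.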

Additional observations from a re-analysis of the deposited data

How the results depend on the processing

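ATRX, RTEL1, TERT and ACD kept their direction in every alternative run. KDM1A stayed past the adjusted threshold, and the order of levels kept 7 or 8 of 8 neighbours apart. The replicate numbers are only shared between groups: same-numbered libraries correlated at 0.328, 0.0745 and 0.310 in their deviations from the group means, and every library correlated best with its own number. With the replicate block, 2 members passed the adjusted threshold (ATRX at 0.0210 and RTEL1 at 0.0150, edgeR), as did 2 related genes, and 8 related genes were higher and 2 lower at the unadjusted threshold, which 2546 of 11844 genes then passed instead of 1662. Over all genes, calls at the adjusted threshold rose from 171 to 897 with the block, to 837 with GC and length corrected for and to 323 with DESeq2, and fell to 58 without siCTR replicate 3. With the GC and length correction, 1 member (ATRX) and 1 related gene passed the adjusted threshold, 1 member was lower, and 11 related genes were higher and 5 lower at the unadjusted one, which 2898 of 11765 genes then passed. DESeq2 gave 1 lower member and 3 higher related genes, and scaling by library size 2 lower related genes, with 1560 and 1656 of 11844 genes past the unadjusted threshold. Leaving out 1 library gave 0 to 1 higher and 0 to 2 lower members, and 2 to 6 higher and 0 to 3 lower related genes. Without siLSD1 replicate 3, 0 members were under the unadjusted threshold in either direction. The cause of these differences was not tested.

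TERF1, whose log2 fold change is −0.002, turned to 0.000363 with library size scaling, 0.00345 with the 1 CPM filter, 0.00242 with the block, 0.0163 with the second counting, 0.00253 with the GC and length correction, 0.00295 with voom and 0.00429 on log2(FPKM + 0.1). With 1 library left out, the log2 fold change ran from −0.0674 to 0.121 for TERF1, from −0.0956 to 0.0256 for TERF2, from −0.204 to 0.0797 for TERF2IP and from −0.00666 to 0.317 for POT1. RTEL1 had 22 to 81 reads per library with a standard error of 0.30, and TERT 71 to 109 reads with 0.19.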

Other observations

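Outside the members, 4 genes of the related lists were counted near 0 with few or no matches in alternate sequences, and they were picked after their values were seen. TNKS, a poly(ADP-ribose) polymerase that releases TRF1 from telomeres, had 0 to 7 reads per library, TEN1 had 1 to 7, TOP3A, a topoisomerase of the BLM complex, had 0 to 1, and ZNF827, a zinc finger protein at ALT telomeres, had 0 to 2. The share of their 32-base words in alternate sequences was 0.00% for TNKS, TEN1 and ZNF827 and 6.38% for TOP3A. Near-zero counts in this table thus occurred with and without such matches, the latter in TNKS, TEN1 and ZNF827. Around TINF2, 4 of 44 protein-coding neighbours within 500 kb had a row and 2 reached 1 FPKM in siCTR, and 0 of the 44 had over 90% of their words in alternate sequences. Around ACD, 42 of 46 neighbours had a row and 32 reached 1 FPKM.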
